A study of Mus musculus with 2 samples.

Results

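Dermal fibroblasts (dFB) carrying the chemokine transcript *Cxcl9* were compared with dFB carrying none, within the same inflamed ear skin. A dFB was a cell with at least 1 UMI of *Pdgfra*, at least 20 UMIs of *Col1a1* and *Col3a1* together, no UMI of the leukocyte gene *Ptprc* and at most 1 UMI of the cartilage gene *Acan*. A UMI counts 1 captured transcript. Of the 11665 cells kept from the ACD library, 1821 passed this gate, and 211 of them (11.6%, exact 95% interval 10.2 to 13.1%) carried at least 3 UMIs of *Cxcl9*. They were set against the 710 ACD dFB without a *Cxcl9* UMI that had at least 11052.5 UMIs in all, the lowest quartile of the *Cxcl9*-positive cells. A further 129 dFB with 1 or 2 *Cxcl9* UMIs and 771 *Cxcl9*-negative dFB below that depth entered neither set. The cells were thus chosen by their measured *Cxcl9*, *Pdgfra*, *Col1a1*, *Col3a1*, *Ptprc* and *Acan* UMIs and total depth, and these values are given below as a description only.

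The cells came from ear skin of ICR mice aged 7 to 8 weeks. In the allergic contact dermatitis (ACD) group the hapten 2,4-dinitrofluorobenzene (DNFB) was painted at 1% on the back for sensitization and at 0.2% on the ear on day 6, and ears were taken 60 hr later. The CTRL group was healthy ear skin. Dead cells were removed before droplet capture, and each group was 1 library of 3′ transcript ends with no stated number of pooled animals. With 1 library per group there is no replicate check, so no test and no p-value is given. A level is a summed UMI count per 1000000 UMIs with its exact 95% Poisson interval, and all intervals cover counting error only.

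CXCL9, CXCL10 and CXCL11 are chemokines that bind CXCR3, a receptor on activated T and NK cells. Interferon-γ binds IFNGR1 and IFNGR2 and signals through the kinases JAK1 and JAK2 to factors that bind GAS elements in target genes, *Irf1* among them. Interferon-stimulated response elements (ISRE) are bound by IRF factors, and κB elements by NF-κB.

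The start regions of 3 genes that the comparison turned on are shown because they hold these letters in different combinations. Each is the 250 bases before the RefSeq start in the mouse build GRCm38.p6, 5′ to 3′ on the gene's strand. Capitals mark matches, on either strand, to ISRE (GAAA, any 2 bases, then GAAA), GAS (TTCNNNGAA) or κB (GGGANTTCC, or the same with 2 free bases in place of N). The windows lie at chr5:92328080-92328329 on the minus strand for *Cxcl9*, at chr5:92348890-92349139 on the minus strand for *Cxcl10*, which lies beside it, and at chr3:142620413-142620662 on the plus strand for *Gbp2*, a guanylate-binding protein.
Cxcl9: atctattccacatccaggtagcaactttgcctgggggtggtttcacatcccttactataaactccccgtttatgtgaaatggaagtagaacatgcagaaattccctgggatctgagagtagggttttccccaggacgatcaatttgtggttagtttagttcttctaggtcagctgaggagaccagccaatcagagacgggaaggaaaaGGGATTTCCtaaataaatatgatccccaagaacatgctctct
Cxcl10: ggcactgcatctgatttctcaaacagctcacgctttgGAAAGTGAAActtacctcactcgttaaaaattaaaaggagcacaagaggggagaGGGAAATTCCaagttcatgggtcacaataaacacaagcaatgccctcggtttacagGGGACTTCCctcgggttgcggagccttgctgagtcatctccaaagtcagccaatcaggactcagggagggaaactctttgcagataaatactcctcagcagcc
Gbp2: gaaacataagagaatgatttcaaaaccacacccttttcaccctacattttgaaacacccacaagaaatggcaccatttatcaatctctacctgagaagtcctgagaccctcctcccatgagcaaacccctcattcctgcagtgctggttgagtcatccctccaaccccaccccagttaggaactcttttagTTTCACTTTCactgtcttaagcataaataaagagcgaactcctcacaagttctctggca
The *Cxcl9* window held 1 κB match, 42 to 34 bases before the start. That of *Cxcl10* held an ISRE match at 213 to 204 bases and κB matches at 159 to 150 and 103 to 95 bases before the start. The *Gbp2* window held 1 ISRE match, on the opposite strand, at 59 to 50 bases. None of these matches overlapped another. Among all 27025 RefSeq start windows of this length, 3.46% held ISRE letters, 8.13% GAS letters and 2.94% κB letters. A match describes letters and is no evidence of a bound site.

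*Cxcl9* itself (ENSMUSG00000029417, chr5:92321347-92328079, minus strand) was spread very unevenly. The 211 cells held 6804 *Cxcl9* UMIs, from 3 to 471 per cell, with a median of 12 and quartiles of 5 and 31.5. The 10 richest cells held 35.5% of these UMIs, and the 21 richest held 54.0%. At the threshold, 25 cells stood just inside with 3 UMIs, and 34 cells with 2 UMIs and 95 cells with 1 UMI stood just outside. The members fall into the ranges of the plot of *Cxcl9* UMIs per cell as follows. In number, 87 cells lie between 3 and 9 UMIs, 66 between 10 and 29, 39 between 30 and 99, and 19 at 100 or more.

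**Figure D1:**
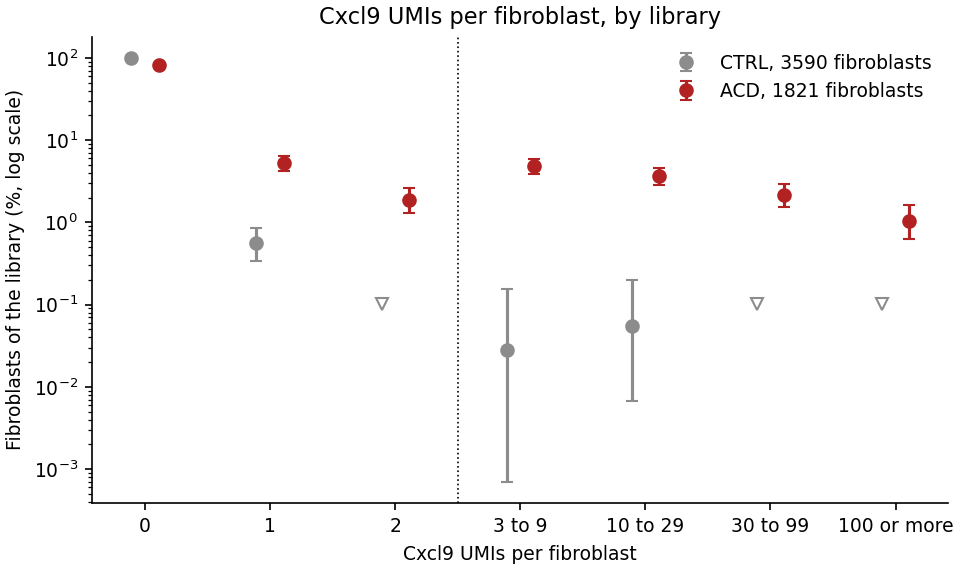
Share of dFB of each library (y, percent on a log axis, with exact 95% intervals) by *Cxcl9* UMIs per cell (x), for ACD in red and CTRL in grey, with open triangles for the upper limit that a count of 0 allows. Right of the dotted line at the threshold of 3 UMIs lie 211 of 1821 ACD dFB and 3 of 3590 CTRL dFB.

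Over all ACD dFB the *Cxcl9* level was 317 (310 to 325) UMIs per 1000000. In the 3590 CTRL dFB passing the same gate it was 1.48 (1.09 to 1.96). Just 3 of those cells (0.0836%, 0.0172 to 0.244%) reached 3 UMIs, with 10, 15 and 3 *Cxcl9* UMIs, and 20 others had 1 UMI.

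Deeper cells were more often members. When ACD dFB were ranked by total UMIs and cut into 3 equal groups, 4.45% of the shallowest (median 7082 UMIs), 10.4% of the middle (11339) and 19.9% of the deepest (17241) reached 3 *Cxcl9* UMIs. The depth floor applied to the *Cxcl9*-negative cells only, and 158 of the 211 members lay at or above it. Members ranged from 2943 to 24917 UMIs and *Cxcl9*-negative cells from 11061 to 24981, with close medians. Members had a median of 15068 UMIs and 3569 genes, and *Cxcl9*-negative cells 14905 UMIs and 3649 genes. Mitochondrial transcripts took a median of 2.09% and 2.44% of UMIs. The median depth over all ACD dFB was 11339 UMIs, and over CTRL dFB 8360.5.

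Identity genes that the gate did not use were found in most cells of both sets. Their shares cannot tell dermal fibroblasts from the cartilage-side cells described below, which both sets also hold. The small leucine-rich proteoglycan *Dcn* was found in 100% of members and 99.9% of *Cxcl9*-negative cells, and *Lum*, another such proteoglycan, in 97.6% and 97.2%. *Thy1*, a surface protein of many fibroblasts, was found in 90.5% and 78.2%.

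The gate also let cartilage-side cells through. At least 3 UMIs over *Angptl7*, *Cilp2*, *Chad*, *Comp*, *Cytl1* and *Col2a1*, genes of cartilage and of the connective tissue around it, were found in 412 of the 710 *Cxcl9*-negative cells (58.0%, 54.3 to 61.7%) but in 50 of the 211 members (23.7%, 18.1 to 30%). T and NK cells of the same library, which should lack these genes, reached this mark in 9.30% of cells at a median of 6179 UMIs. Their gate, here and below, asked for UMIs of *Ptprc* and of *Cd3e*, *Cd3d* or *Cd3g*, so NK cells without the latter fell outside it. Of the CTRL dFB compared below, 42.4% carried it. At or above the depth floor, 39 of 484 cartilage-marked dFB (8.06%) were members, against 119 of 473 unmarked dFB (25.2%). Counts and the main genes below are therefore given for all cells and again, as a second value, for the 161 members and 298 *Cxcl9*-negative cells without the mark, and a single value is from all cells.

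Of 10546 genes with at least 50 UMIs over both sets, 73 (0.692%) were at least 2-fold higher in *Cxcl9*-positive dFB and 211 (2.00%) at least 2-fold lower. This is on log2 ratios of levels with 10 UMIs per 1000000 added, the scale of every log2 ratio below, which understates the change of low genes. Over all compared genes the median log2 ratio was -0.07. Without the cartilage-marked cells, 40 of 8675 genes (0.461%) were higher and 45 (0.519%) lower. Genes at least 2-fold higher in both comparisons numbered 27. The plot of levels shows the contrast, with *Cxcl10* high above the diagonal in both panels and *Comp* and *Chad* returning to it once the marked cells were left out.

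**Figure D2:**
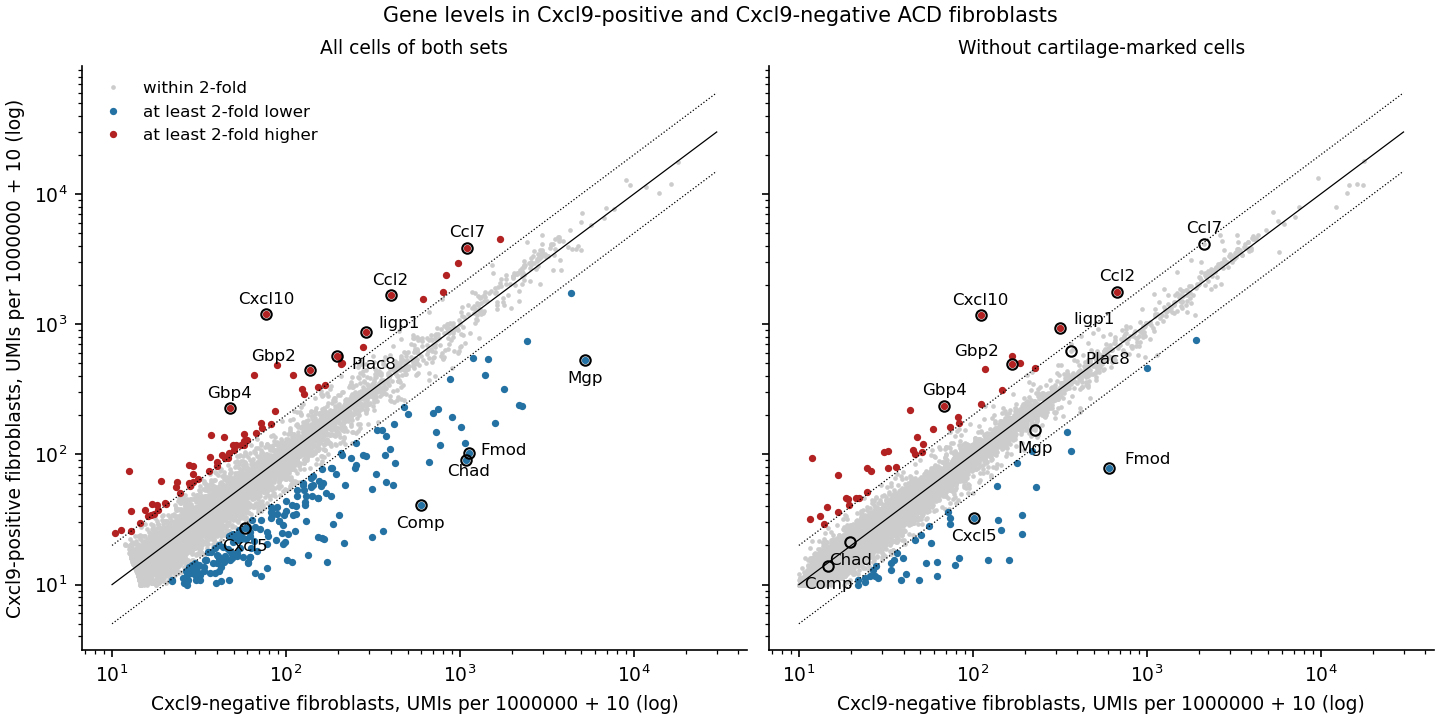
Level of each compared gene in *Cxcl9*-positive (y) and *Cxcl9*-negative (x) ACD dFB, in UMIs per 1000000 with 10 added, on log axes with dotted lines at 2-fold, for all cells (left) and without cartilage-marked cells (right). *Cxcl10*, with levels of 1181 and 67.0 before the addition, lies far above the diagonal on the left, and *Comp* drops out of the lower genes on the right.

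*Cxcl10* stood first among the higher genes. Its level (ENSMUSG00000034855, chr5:92346638-92348889) was 1181 (1144 to 1220) UMIs per 1000000 in *Cxcl9*-positive dFB, 67.0 (62.3 to 72.0) in *Cxcl9*-negative dFB and 28.0 in CTRL dFB. The ratio of the first pair was 17.6 (16.3 to 19.1), a log2 ratio of 3.95 that became 3.41 without the cartilage-marked cells. Members were far from uniform: 126 of 211 (59.7%) had any *Cxcl10* UMI, the median was 1 and the richest cell had 301. At least 3 *Cxcl10* UMIs were found in 90 members (42.7%) and in 44 of the 710 *Cxcl9*-negative cells (6.20%). In each cell thinned to 2000 UMIs, 38.4% (31.8 to 45.3%) of members and 5.21% (3.70 to 7.11%) of *Cxcl9*-negative dFB kept a *Cxcl10* UMI. Chondrocytes of the same library gave 3.33% and T and NK cells 5.49%, while unmarked *Cxcl9*-negative dFB gave 6.38%. Thinned to 5000 UMIs, 14.8% of unmarked *Cxcl9*-negative dFB, 5.85% of chondrocytes and 9.90% of T and NK cells kept one. The part of free RNA in these shares was not tested. Unthinned, the shares were 59.7% and 16.6%. The other CXCR3 ligand, *Cxcl11*, has no row under that symbol.

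The chemokine genes *Ccl2*, *Ccl7* and *Ccl8* were also higher, with smaller ratios once the marked cells were left out. *Ccl2*, a ligand of CCR2, was at 1657 UMIs per 1000000 in members, 390 in *Cxcl9*-negative dFB and 390 in CTRL dFB, a ratio of 4.25 (4.08 to 4.43). Its log2 ratio was 2.06 in all cells and 1.40 without the marked cells. *Ccl7*, another CCR2 ligand, was at 3875 and 1092 (log2 ratio 1.82, then 0.95), and *Ccl8* at 396 and 99.8 (1.89, then 0.98). The CTRL levels of *Ccl7* and *Ccl8* were 1502 and 22.1. Against CTRL, *Cxcl9*-negative ACD dFB were thus level for *Ccl2*, lower for *Ccl7* and higher for *Ccl8* when all cells were used. In unmarked cells they were higher for each, at 663 against 449 for *Ccl2*, 2139 against 1975 for *Ccl7* and 196 against 34.2 for *Ccl8*.

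*Ccl19*, a CCR7 ligand that guides dendritic cells and naive T cells, was at 476 UMIs per 1000000 against 78.4 (log2 ratio 2.46, then 1.76). Its near-identical copy *Gm2564* was at 398 against 55.7 (2.63, then 1.95). Reads of these copies can be split between them by the counting, so the pair counts as 1 uncertain signal. *Ccl5*, a T-cell attractant, had 168 UMIs in members, of which 1 cell held 33.3%, at a log2 ratio of 1.72, then 2.05. It was found in similar shares of the sets, 11.4% of members and 9.58% of *Cxcl9*-negative dFB. Of 19 alternatives, 18 kept it at least 2-fold higher. The lowest ratio, 0.55, came from cells within the UMI quartiles of members. *Cx3cl1*, the membrane-anchored ligand of CX3CR1, was at 24.5 against 6.74 (1.04, then 1.10).

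In all, 6 of 13 compared chemokines besides the CXCR3 ligands were at least 2-fold higher and 1 lower, against 0.692% and 2.00% of all genes. Their median log2 ratio was 0.94. Without the marked cells, 4 of 13 were higher and 1 lower, with a median of 0.44. The neutrophil attractant *Cxcl5* was the lower one, at 17.2 against 47.8 (log2 ratio -1.09, then -1.66). *Cxcl12*, a homeostatic ligand of CXCR4, went from 0.84 to 0.01 when the marked cells were left out, *Ccl11*, an eosinophil attractant, from 0.94 to 0.14 and *Cxcl1* from 0.35 to -0.05.

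The interferon-γ receptor and kinase genes differed by less than 2-fold. *Ifngr1* was at 127 UMIs per 1000000 in members, 106 in *Cxcl9*-negative dFB and 101 in CTRL dFB, with a log2 ratio of 0.25. *Ifngr2* was at 44.2 against 27.0, a ratio of 1.64 (1.33 to 2.01) and a log2 ratio of 0.55, and was found in 45% and 32% of cells. *Jak1* and *Jak2* had log2 ratios of 0.06 and 0.13. *Irf8*, a factor best known in myeloid cells, was at 32.0 against 7.01 (1.30, then 1.12). *Irf1*, an early target of the pathway, was at 740 against 567, with 616 in CTRL dFB (0.38, then 0.20). The feedback inhibitor *Socs1* had a log2 ratio of 0.52 and *Socs3* of -0.08.

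Guanylate-binding proteins (GBP) and immunity-related GTPases (IRG), large interferon-induced GTPases that attack vacuoles of intracellular pathogens, were higher throughout. All 17 compared genes were above 0 on the log2 scale, from 0.48 to 2.25 with a median of 0.91, and 8 were at least 2-fold higher. Without the marked cells, 9 of 15 were at least 2-fold higher and the median was 1.23. *Gbp4* was at 216 UMIs per 1000000 in members and 37.4 in *Cxcl9*-negative dFB, a ratio of 5.78 (5.11 to 6.55), with 0.500 in CTRL dFB. *Gbp2* was at 439 against 127, with 13.2 in CTRL dFB, a ratio of 3.46 (3.21 to 3.72). *Iigp1*, an IRG that loads onto parasite vacuoles, was at 866 against 280, with 2.25 in CTRL dFB.

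The log2 ratios of *Gbp4*, *Gbp2* and *Iigp1* were 2.25, 1.71 and 1.60 in all cells and 1.78, 1.54 and 1.56 without the marked cells. *Gbp8* (1.53), *Gbp9* (1.46), *Gbp5* (1.26), *Ifi47* (1.08) and *Gm4951* (1.04) made up the rest of the 8. *Igtp* passed 2-fold only without the marked cells (0.59, then 1.23). Members of this family share sequence, and *Gbp4*, *Gbp8* and *Gbp9* lie beside one another, so the division of UMIs between single genes is uncertain. Of the 12 listed GTPase genes with a start window, 11 (91.7%) held ISRE letters and 7 (58.3%) GAS letters, as *Gbp2* does above for the ISRE. Among all compared genes with a window these shares were 3.11% and 7.02%.

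The *Cxcl9*-negative dFB were not without this signal. Set against CTRL dFB, where 104 of 11400 genes (0.912%) were at least 2-fold higher and 31 (0.272%) lower, 12 of 13 compared GTPase genes were at least 2-fold higher in *Cxcl9*-negative ACD dFB, with a median log2 ratio of 1.91. Of the class I presentation genes 16 of 19 were higher, with a median of 1.60. For these lists the order of levels ran from CTRL to *Cxcl9*-negative ACD to *Cxcl9*-positive ACD dFB, with the caveat that the ACD and CTRL values come from 1 library each. *Cxcl10* had the same order (28.0, 67.0 and 1181 UMIs per 1000000).

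Genes of MHC class I presentation were higher by smaller amounts. All 20 compared were above 0, from 0.31 to 1.35 with a median of 0.79, and 5 were at least 2-fold higher. These were the immunoproteasome subunits *Psmb9* (306 against 114 UMIs per 1000000, log2 ratio 1.35), *Psmb10* (205 against 76.0, 1.32) and *Psmb8* (660 against 267, 1.28), the peptide transporter *Tap1* (163 against 61.9, 1.27) and the class I gene *H2-Q7* (135 against 57.2, 1.11). *Psmb9* and *Tap1* also passed 2-fold without the marked cells (both 1.08), where the median over 19 genes was 0.77. The classical heavy chains and their light chain had log2 ratios of 0.91 (*H2-K1*), 0.50 (*H2-D1*) and 0.70 (*B2m*). H2-Q genes are close copies, and single values of them are uncertain. ISRE letters were found in 3 of 17 start windows of this list.

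MHC class II genes, which present antigen to CD4+ T cells, depended on the marked cells. In all cells 1 of 6 was at least 2-fold higher, the loading factor *H2-DMa* (32.6 against 10.3, log2 ratio 1.07), and the median was 0.01. In unmarked cells 4 of 5 were higher with a median of 1.72. Macrophage and dendritic cell markers had a median log2 ratio of 0.55 in all cells and 0.41 in unmarked cells. In unmarked cells they summed to 84.7 UMIs per 1000000 in members and 47.7 in *Cxcl9*-negative dFB. All 4 compared were above 0, with *Lyz2*, a lysozyme of myeloid cells, highest at 1.35. In members 7 of the 14 listed were at 0. The part of such cells in the class II values was not tested. The invariant chain *Cd74* was at 248 UMIs per 1000000 against 392 in all cells (log2 ratio -0.64), but at 208 against 33.3 without the marked cells (2.33). *H2-Ab1* went from -0.07 to 1.72 and *H2-Aa* from 0.48 to 1.76. *Ciita*, the class II transactivator, had 1 UMI in each set. Between the cell selections the member levels of *Cd74* moved little, while the level in *Cxcl9*-negative dFB dropped.

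Antiviral interferon-stimulated genes were moderately higher, 24 of 25 above 0 with a median log2 ratio of 0.64, and 5 at least 2-fold higher. These were the tetherin gene *Bst2* (482 against 196 UMIs per 1000000, log2 ratio 1.25), *Ifi27l2a* (490 against 200, 1.25), the interferon regulator *Irf7* (89.7 against 33.0, 1.21), the nucleic acid sensor *Zbp1* (84.6 against 34.8, 1.08) and *Oasl2* (46.7 against 18.1, 1.01). In unmarked cells 4 of 21 were higher with a median of 0.66, *Bst2* at 1.44 and *Ifi27l2a* at 0.66. *Isg15*, a ubiquitin-like modifier, had a log2 ratio of 0.73. *Irf9* stood at -0.05. Of 22 start windows of this list, 8 (36.4%) held ISRE letters.

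Complement genes differed less once the marked cells were left out, and the genes of the list named acute-phase were mixed. *C2* (log2 ratio 1.21) and *C3* (1.14) were the 2 of 10 complement genes past 2-fold, with a list median of 0.69, and both fell short of it without the marked cells (0.53 and 0.56), where the list had none and a median of 0.41. Among the 5 genes of that list, *Plac8* (560 against 186, log2 ratio 1.54) and *Lcn2* (322 against 142, 1.13) were higher. The protease inhibitor *Slpi* was lower (11.3 against 88.3, -2.21). *Lcn2* was found in 36.5% of members, and 1 cell held 18.2% of its member UMIs. In unmarked cells *Plac8* was at 0.75, *Lcn2* at 0.21 and *Slpi* at -2.05. *Saa3*, the serum amyloid gene with 1336 against 1024 UMIs per 1000000, passed from 0.38 to -0.69. All 5 were at least 2-fold higher in *Cxcl9*-negative ACD dFB than in CTRL dFB, with a median of 3.24.

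**Figure D3:**
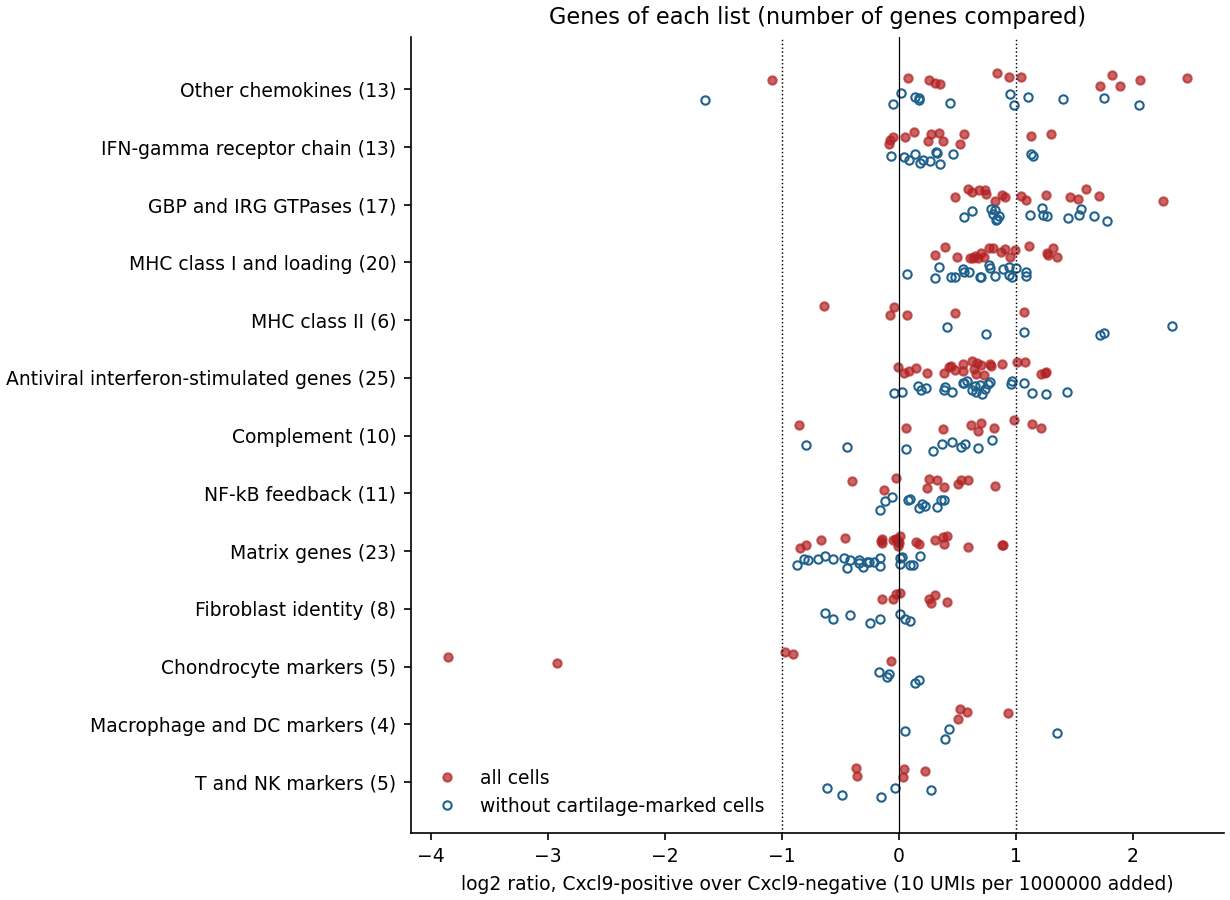
Log2 ratio of *Cxcl9*-positive over *Cxcl9*-negative dFB (x axis, 10 UMIs per 1000000 added) for each compared gene of 13 lists, in all cells (red) and, for the same genes, without cartilage-marked cells (open blue). GTPase genes lie between 0.48 and 2.25 in all cells, and matrix genes have a median of -0.005.

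Several lists held no gene past 2-fold in all cells. NF-κB feedback genes had 0 of 11, with a median log2 ratio of 0.32, the cytokines of dFB 0 of 10 (0.26, with the monocyte growth factor *Csf1* highest at 0.83) and cytokine receptors 0 of 11 (0.27). Immediate-early and heat-shock genes, which respond to tissue digestion, also had 0 of 15, at a median of -0.04. Among genes that act on T cells, *Cd274*, encoding the checkpoint ligand PD-L1, had a log2 ratio of 0.77 and *Icam1* of 0.36, and *Sectm1a* was the 1 of 5 past 2-fold (1.61, then 0.996). Matrix genes had 0 of 23 past 2-fold in either direction, with a median of -0.005 in all cells and -0.31 without the marked cells. This list holds *Col1a1* and *Col3a1*, which the gate used, so the values of those genes are a description only. *Dcn* stood at -0.02 and *Col1a2* at -0.05 in all cells, and at 0.01 and -0.56 without the marked cells. *Timp1*, an inhibitor of metalloproteinases, went from 0.89 to 0.09.

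The 10 lowest genes were led by cartilage-side transcripts. *Comp*, a cartilage matrix protein and one of the 6 marker genes, was at 31.0 UMIs per 1000000 in members and 584 in *Cxcl9*-negative dFB, 18.8 times lower, with a log2 ratio of -3.86 that became -0.10 without the marked cells. *Wfdc2* (-3.82), *Cilp2* (-3.75), *Chad* (-3.45), *Ucma* (-3.37), *Mgp* (-3.30), *Col8a1* (-3.28) and *Angptl7* (-3.19) likewise shrank to between -0.58 and 0.11. Removal of cells by *Comp*, *Cilp2*, *Chad* and *Angptl7* fixes the return of those 4. *Fmod*, a collagen-binding proteoglycan, and *Spp1*, encoding osteopontin, kept a lower level (-3.57, then -2.96, and -3.53, then -2.39). Of the member UMIs of *Fmod*, 44.8% came from 1 cell.

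*S100a9*, a neutrophil alarmin, stood among the 10 highest with a log2 ratio of 2.56, but 195 of its 205 UMIs in members (95.1%) came from 1 cell. The pericyte gene *Rgs5* (1.38) owed 112 of its 164 UMIs to 1 cell. *AW112010*, an interferon-induced transcript, was at 132 against 26.9 UMIs per 1000000 (1.95, then 1.39), spread over 112 of 211 members. Cells with at least 3 UMIs of *S100a8* and *S100a9* together, or at least 3 of *Rgs5*, were then left out. This left 205 and 707 cells, with 68 genes higher and 217 lower.

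Markers of other cell types were followed as whole lists. Macrophage and dendritic cell markers summed to 70.5 UMIs per 1000000 in members and 33.2 in *Cxcl9*-negative dFB. In members 7 of the 14 were at 0, *C1qa* had 2 UMIs, *C1qb* none and *C1qc* 1, and *Ptprc* was 0 by the gate. T and NK markers summed to 29.8 and 35.3, endothelial markers to 1.57 and 16.8, keratinocyte markers to 88.1 and 74.3, and Schwann cell markers to 31.0 and 87.6. Pericyte and smooth muscle markers summed to 123 and 193, chondrocyte markers to 120 and 1277, and granulocyte and mast cell markers to 85.3 and 7.01, the last carried by the *S100a8* and *S100a9* cell. In unmarked cells the macrophage sums were 84.7 and 47.7, the pericyte sums 63.7 and 390 and the Schwann cell sums 16.4 and 104. The granulocyte sums there were 112 and 9.36 and the chondrocyte sums 47.4 and 44.6. The chondrocyte list shares *Comp*, *Cytl1* and *Col2a1* with the mark, and the gate caps *Acan*. Its sums in unmarked cells were thus largely set by the selection. A UMI of any of 10 immune genes was found in 89 members (42.2%) and 215 *Cxcl9*-negative dFB (30.3%). Leaving these cells out gave log2 ratios of 4.22 for *Cxcl10*, 2.42 for *Gbp4*, 1.97 for *Gbp2* and 2.33 for *Ccl2*, each above its value with them. Doublets were not called, and 50 barcodes occurred in both libraries.

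For some genes, levels were higher in cells with more *Cxcl9*. Cells at or above the depth floor were put in classes of 0 (710 cells), 1 or 2 (89), 3 to 9 (61) and at least 10 *Cxcl9* UMIs (97). Of these, 298, 56, 37 and 82 cells lacked the cartilage mark, so the make-up of the classes differed. *Cxcl10* stood at 67.0, 191, 415 (377 to 456) and 1700 (1638 to 1763) UMIs per 1000000 over these classes. Without the marked cells it stood at 101, 119, 91.7 (69.4 to 119) and 1755, so the difference lay in the class of at least 10. The values of the genes that follow are from all cells, so this difference in make-up enters them. *Gbp2* stood at 127, 165, 246 and 566, *Gbp4* at 37.4, 70.3, 118 and 308, and *Psmb8* at 267, 357, 460 and 784. *Iigp1* stood at 280, 383, 540 and 1110. *Ccl2* took the order 390, 1025, 980 and 2215, with no higher level in the class of 3 to 9 than in that of 1 or 2, and *Irf1* 567, 646, 649 and 794. *Ly6a*, a surface antigen of progenitor-like dFB, stood at 1686, 2650, 3316 and 5488.

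Of all 10546 compared genes, 11.5% were higher at both steps in all cells and 10.6% in unmarked cells. From no *Cxcl9* to 3 to 9 UMIs and on to at least 10 UMIs, 15 of 17 GTPase genes were higher at both steps, 18 of 20 class I genes, 17 of 25 antiviral genes and 1 of 23 matrix genes. Without the marked cells these were 10 of 17, 15 of 20, 15 of 25 and 0 of 23. At the first step alone, 15 of 17 GTPase genes were higher in all cells and 10 of 17 in unmarked cells. At the second step all 17 were higher in both selections.

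**Figure D4:**
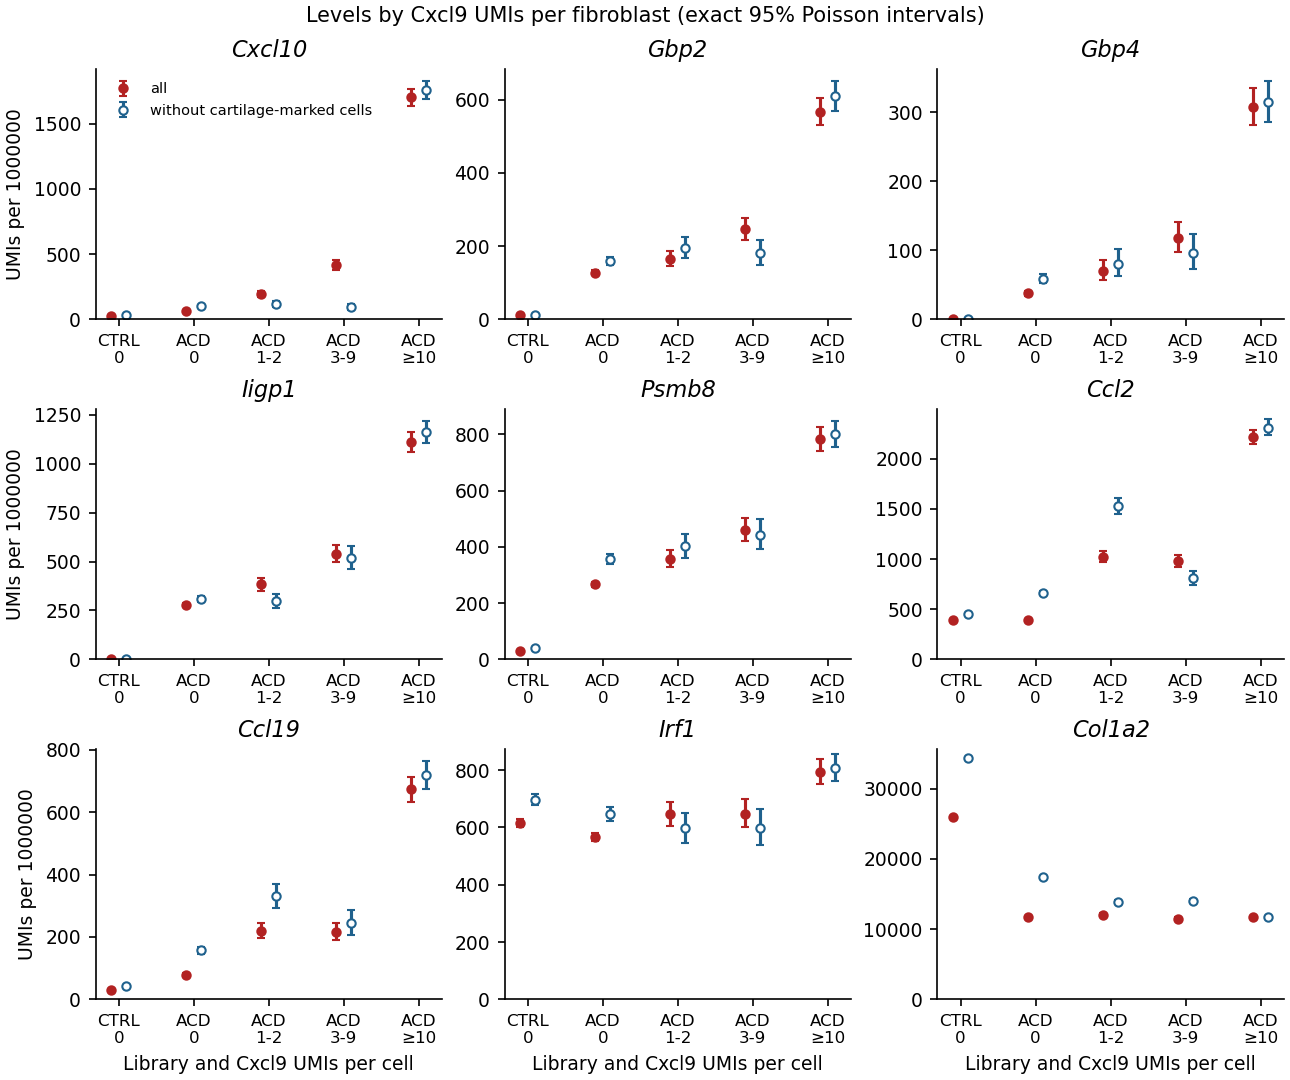
Levels of 9 genes (UMIs per 1000000 on linear axes, with exact 95% Poisson intervals) by class of *Cxcl9* UMIs per cell, for CTRL and ACD dFB at or above the depth floor, in all cells (red) and without cartilage-marked cells (open blue). *Cxcl10* runs from 67.0 to 1700 over the ACD classes, while *Col1a2* is 11752 in the class of 0 and 11747 in the class of at least 10.

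Within the 211 members, the *Cxcl9* level per cell followed some genes in rank. The highest Spearman values among 6172 genes were those of *Psmb8* (0.41), *Ifitm3* (0.41), *Txn1* (0.40), *Cxcl10* (0.40), *Gbp2* (0.37) and *Tspo* (0.34), with a median over genes of -0.03. *Aldh1a1*, a retinoic acid synthesis enzyme, was lowest at -0.32. *Ccl8* (0.04) and *Cxcl12* (-0.01) were near 0. These values describe 211 cells of 1 library that share its depth and base composition, and the cells are not replicates.

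*Cxcl9*-positive dFB were found among every subtype of dFB marked by a gate. Gates on *Pi16*, on *Gdf10* or *C7*, on *Cyp2f2* and on *Coch* or *Crabp1* overlap, so a cell can pass more than one. Of cells at or above the depth floor, 62 of 368 *Pi16* cells (16.8%), 16 of 78 *Gdf10* or *C7* cells (20.5%), 75 of 290 *Cyp2f2* cells (25.9%) and 73 of 368 *Coch* or *Crabp1* cells (19.8%) were members. In unmarked cells these shares were 20.3, 16.4, 25.9 and 28.2%. *Pi16* marks adventitial progenitor-like dFB, and *Coch* and *Crabp1* mark dFB close to hair follicles. Free RNA of these genes can open a gate, so the shares describe the gates and not pure subtypes.

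Few genes typical of these subtypes passed 2-fold. In the *Pi16* list 1 of 7 genes was at least 2-fold higher, *Ly6a* (4538 against 1686, log2 ratio 1.42, then 0.88), and 1 lower, the semaphorin *Sema3c* (32.9 against 119, -1.59, then -0.55). *Pi16* itself stood at -0.11, then -0.86, and *Dlk1*, an inhibitor of fat cell differentiation, at 0.89, then 1.51. None of 6 genes of the *Cyp2f2* list passed 2-fold, but all 6 were above 0, with a median of 0.85 in all cells and 0.15 in unmarked cells, and *Postn*, a matricellular protein, stood at 0.97, then 0.22. Of the *Gdf10* and *C7* list 6 of 7 were above 0 and none past 2-fold (median 0.44), while in unmarked cells the median was -0.02 and *C7*, a complement component, was lower (-0.63, then -1.38). None of 5 genes of the *Coch* and *Crabp1* list did so in all cells (median -0.52), and *Coch* was lower in unmarked cells (-0.69, then -1.34).

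*Cxcl10*, *Gbp4*, *Gbp2*, *Iigp1* and *Tap1* were higher inside each of the 4 gates. *Cxcl10* had log2 ratios of 4.42 in the *Pi16* gate, 3.1 in the *Gdf10* or *C7* gate, 2.59 in the *Cyp2f2* gate and 3.98 in the *Coch* or *Crabp1* gate, and in unmarked cells of 3.91, 2.90, 2.60 and 3.46. *Gbp4* stood between 1.93 and 2.24, *Iigp1* between 1.51 and 2.00 and *Tap1* between 1.12 and 1.96. *Irf1* stood between -0.04 and 0.50, and *AW112010* at -0.15 in the *Gdf10* or *C7* gate, where 23 members were set against 54 cells. *Ccl2* went from 2.28 in the *Coch* or *Crabp1* gate to 0.27 in the *Gdf10* or *C7* gate, and *Ccl8* from 2.40 to 0.27. In unmarked cells the contrast between these gates was smaller, 1.27 and 0.90 for *Ccl2* and 1.31 and 0.47 for *Ccl8*. *Plac8* went from 1.45 to -0.03, and in unmarked cells from 0.76 to 0.37. *Comp* was at -4.17 in the *Coch* or *Crabp1* gate and -3.25 in the *Pi16* gate, so those gates also held cartilage-marked cells.

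**Figure D5:**
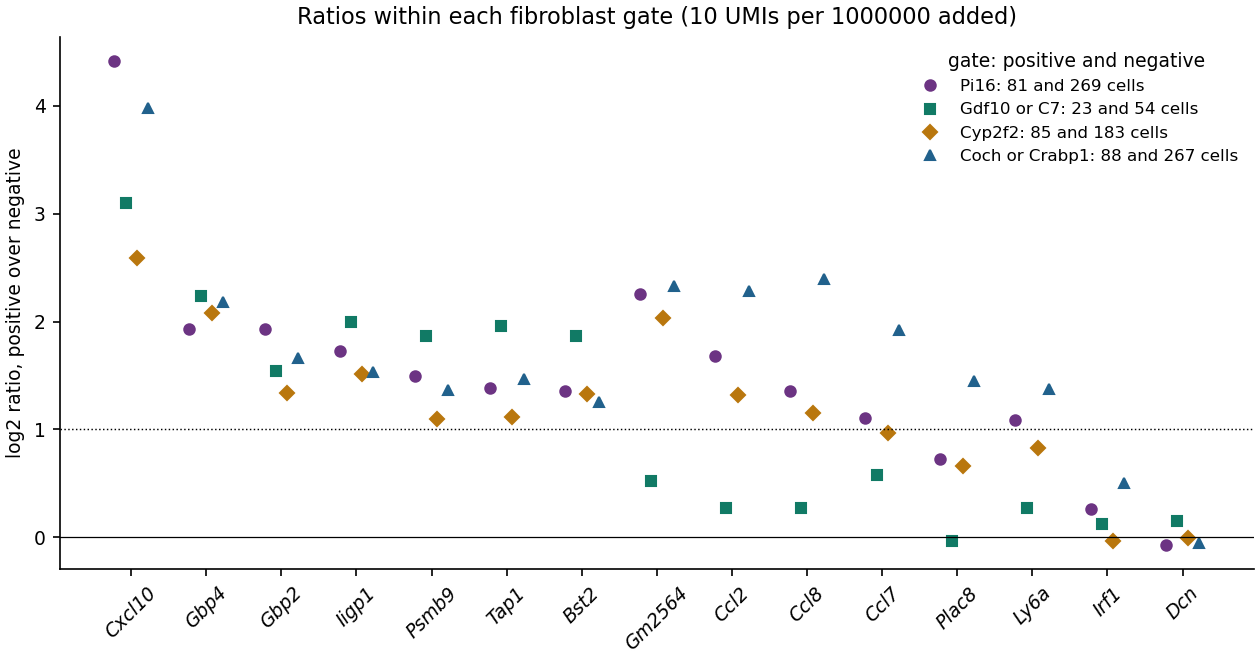
Log2 ratio of *Cxcl9*-positive over *Cxcl9*-negative dFB for 15 genes within each of 4 subtype gates. *Cxcl10* is the highest in the *Pi16* gate at 4.42, and *Ccl2* and *Ccl8* are at 0.27 in the *Gdf10* or *C7* gate.

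Shares of cells with a UMI, after thinning each cell to 2000 UMIs, gave the same order at equal depth. *Gbp2* was kept by 47.9% of members, 16.3% of *Cxcl9*-negative dFB and 1.73% of chondrocytes. *Gbp4* was kept by 28.9%, 6.06% and 1.11%. *Ccl2* was kept by 56.9%, 21% and 2.22%, and *Ccl8* by 38.9%, 10.3% and 1.11%. Unmarked *Cxcl9*-negative dFB kept *Gbp2* in 20.1%, *Gbp4* in 8.39%, *Ccl2* in 34.2% and *Ccl8* in 24.2%. T and NK cells kept *Gbp2* in 12.3%, *Gbp4* in 23.4%, *Ccl2* in 2.51% and *Ccl8* in 0.502%. *Irf1* was kept by 68.2% of members and 65.1% of *Cxcl9*-negative dFB. *Ifngr1* was kept by 24.6% and 18.3%, with 39.0% in T and NK cells. Without thinning, *Gbp2* was found in 84.4% and 50.4%, *Gbp4* in 57.3% and 18.0% and *Ccl2* in 72.0% and 39.6%.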

How the data were processed

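Per the labels and the submitters' processing notes, the authors made UMI counts per gene with Cell Ranger 3.1.0 on mm10 and deposited filtered matrices as raw counts (12895 CTRL and 13163 ACD barcodes, 99037698 and 126566870 UMIs). Members and gene lists were chosen with earlier results of these data known. Here, a cell was kept with 201 to 4999 detected genes, if its UMIs did not exceed 25000 and its mitochondrial share stayed below 8%, rows sharing a symbol were summed (27998 rows, 27933 symbols), and UMIs were summed over cells. With 1 library per group no count model was fitted. Genes with at least 50 UMIs over both sets were compared. Genes named were members of the described lists and the 10 highest and 10 lowest log2 ratios, with *Cxcl9* left out, and 6 of 319 listed genes have no row. Shares carry Clopper-Pearson intervals. Doublets were not removed. In simulated data over 10522 genes, 95.6% of intervals held the true ratio. Of 4-fold higher genes 94% were called at 2-fold, and of 4-fold lower genes 58%. The simulation drew summed counts and no single cells. It therefore cannot show how the intervals hold under the spread between cells. Alternatives were other cuts, scalings, depths and subsets. Used were Python 3.11.15, numpy 2.4.6, scipy 1.17.1, pandas 2.3.3 and matplotlib 3.10.9. Some items are not reported here.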

Additional observations from a re-analysis of the deposited data

Results flagged for a closer look

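*Cxcl9* was also found outside the dFB gate in the ACD library, in gates that the comparison did not use. Its level was 656 (583 to 736) UMIs per 1000000 in 35 macrophage-gated cells, 577 (548 to 607) in 257 pericyte-gated cells and 198 (173 to 224) in 90 endothelial-gated cells. Keratinocyte-gated cells (126) stood at 142 (125 to 160) and T and NK cells (2829) at 47.9 (45.1 to 50.9). In the CTRL library each of these gates had 0 *Cxcl9* UMIs, which, by a floor of 3 counts, allows up to 21.1 UMIs per 1000000 in the macrophage gate (16 cells), 1.28 in the pericyte gate, 3.50 in the endothelial gate, 1.24 in the keratinocyte gate and 0.797 in T and NK cells. At least 3 *Cxcl9* UMIs were found in 8 of the macrophage-gated cells (22.9%), 38 pericyte-gated cells (14.8%), 11 endothelial-gated cells (12.2%), 7 keratinocyte-gated cells (5.56%) and 25 T and NK cells (0.884%). Chondrocytes of the ACD library stood at 7.64 (6.03 to 9.55), with 4 of 811 cells (0.493%) at 3 UMIs or more. Thinned to 2000 UMIs, 14.0% of pericyte-gated cells, 17.6% of macrophage-gated cells, 1.29% of T and NK cells and 0.617% of chondrocytes kept a *Cxcl9* UMI, against 10.8% of dFB. Doublets were not called, and their part in these values was not tested.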

How the results depend on the processing

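With 1 library per group no library could be left out, and no paired fit exists. No paired analysis was possible because each group is 1 library. Genes at least 2-fold higher (73) and lower (211) became 164 and 597 with 1 UMI per 1000000 added, 126 and 357 in cells thinned to 2000 UMIs, 34 and 49 within the *Cyp2f2* gate, 44 and 60 within the *Gdf10* or *C7* gate, 40 and 45 without cartilage-marked cells, and 40 and 52 without cells with chondrocyte markers. With members of at least 1 *Cxcl9* UMI, 39 were higher. The share of calls that were higher was 25.7%, against 47.1% without cartilage-marked cells, 43.5% without chondrocyte-marker cells, 42.3% within the *Gdf10* or *C7* gate and 41.0% within the *Cyp2f2* gate. The 8 higher GTPase genes became 13 with 1 UMI added and 5 with members of at least 1 UMI. The 5 class I genes became 8 with 1 UMI added, 8 with median-of-ratios scaling and 2 without cartilage-marked cells. The 5 antiviral genes became 9 with 1 UMI added, 1 with members of at least 1 UMI, 3 within the *Cyp2f2* gate, 1 within the *Gdf10* or *C7* gate, 8 within the *Pi16* gate and 8 without cells with immune genes. The 6 chemokines became 0 within the *Gdf10* or *C7* gate. The share of ACD fibroblasts with at least 3 Cxcl9 UMIs (11.6%) was 13.5% over all deposited barcodes, 18.7% at 1 UMI, 9.01% at 5 UMIs, 16.0% without cartilage-marked cells, 15.8% without chondrocyte-marker cells and 8.90% without cells with immune genes. Thinned to 5000 UMIs, *Cxcl10* was kept by 48.3% of members and 8.59% of *Cxcl9*-negative dFB, and *Gbp2* by 68.9% and 31.3%. *AW112010* (-0.15) and *Plac8* (-0.033) changed sign within the *Gdf10* or *C7* gate, and *Chad* (0.11) without cartilage-marked cells. Of 874 values of 45 named genes under 20 alternatives, 449 stayed within the counting interval, 422 moved and these 3 changed sign. Sign changes were counted only for genes at least 2-fold higher or lower in the main comparison. Smaller ratios changed sign too. *Lpl* (0.88) stood at -0.35 within the *Cyp2f2* gate, and *Cxcl12* (0.84) at -0.66 within the *Gdf10* or *C7* gate. The alternatives without cartilage-marked cells, without chondrocyte-marker cells and without the *S100a8*, *S100a9* or *Rgs5* cells were chosen after seeing the data. The causes were not tested. With 1 library per group, animal, library and condition cannot be told apart.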

Other observations

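Some genes outside the described lists, chosen after their values were seen, also differed. *Rarres2*, encoding the chemoattractant chemerin, was at 2941 UMIs per 1000000 in *Cxcl9*-positive and 970 in *Cxcl9*-negative dFB (log2 ratio 1.59, and 0.78 without cartilage-marked cells). *Ly6c1* was at 2367 against 823 (1.51, then 0.74), and *Tnfaip6*, a hyaluronan-binding protein made in inflammation, at 1543 against 605 (1.34, then 0.62). *Mpeg1*, a pore-forming gene best known in macrophages, was at 134 against 47.4 (1.33, then 0.90). It was found in 71.1% of members and 33.7% of *Cxcl9*-negative dFB. On the lower side, *Wif1*, a secreted WNT inhibitor, was at 60.8 against 320 (-2.22, then -2.04), and *Igfbp2* at 138 against 722 (-2.30, then -1.78).

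The 3 CTRL dFB with at least 3 *Cxcl9* UMIs did not share the *Cxcl10* values of each other. They held 0, 2 and 17 *Cxcl10* UMIs and 0, 5 and 0 *Gbp2* UMIs.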
